A study of Homo sapiens with 10 samples.

Results

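The arrestin family in these data comprised 7 genes of the 58395 that were counted: the alpha-arrestins ARRDC1, ARRDC2, ARRDC3, ARRDC4 and TXNIP, and the beta-arrestins ARRB1 and ARRB2. The members were found by matching their symbols to the Ensembl identifiers of the count tables, and all 7 were present. ARRDC3, with TXNIP beside it, was chosen from measured values of these libraries. The comparison used for the choice was not named, and it was taken to be siGGGGGC against siNT1 at 48 h. The values of that comparison are therefore given for the family as a description without a test. Whether values at 24 h also entered the choice is not known. The other members belong to the same family by name, whatever their values.

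RNA came from HeyA8, an established human ovarian cancer cell line. Parental cells were transfected with 10 nM of an siRNA duplex and harvested at 24 h or 48 h. The groups were siNT1 (the non-targeting control, labelled siNT1 S2'OM) at 24 h, siGGGGGC at 24 h, siNT1 at 48 h, siGGCAGU at 48 h and siGGGGGC at 48 h. The names siGGGGGC and siGGCAGU are those of the transfection labels, while the sample titles call them siMxy and si34a. Each group had 2 libraries from duplicate wells, so the errors and p-values measure the spread between wells and libraries of a single cell line. siGGGGGC and siGGCAGU carry the 6 letters of their names at positions 2 to 7 of the guide strand, the seed, through which the guide finds its messenger RNAs the way a microRNA does.

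Arrestins share a fold made of a pair of beta-sheet lobes and act as adaptors rather than enzymes. Beta-arrestins bind phosphorylated G protein-coupled receptors, stop their signalling and hand them to clathrin and the adaptor AP2 for endocytosis. Alpha-arrestins carry PPxY motifs with which they recruit ubiquitin ligases of the NEDD4 family to membrane cargo. ARRDC3 is known for its action on integrin beta4 and as a brake on invasion of breast cancer cells. TXNIP binds thioredoxin and lowers glucose uptake through the transporters GLUT1 and GLUT3, and its transcription follows glucose through the factors MondoA and MLX.

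The seed of siGGCAGU is that of the tumour-suppressive microRNA miR-34a-5p, whose mature sequence (RefSeq, GRCh38.p14, minus strand, chr1:9151735-9151756) is shown with its seed, bases 2 to 8, in capitals.
hsa-miR-34a-5p: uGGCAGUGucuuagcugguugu
The word that pairs with positions 2 to 7 of the guide is ACTGCC for siGGCAGU and GCCCCC for siGGGGGC. Of 19248 genes with an annotated 3′ UTR in GENCODE release 44, 32.7% held ACTGCC and 30.2% held GCCCCC in their longest 3′ UTR. Within the family TXNIP held ACTGCC at 2 places, ARRDC3 at 1 and ARRB1 at 1, and the other members held no copy. The word GCCCCC was found at 4 places in ARRB1, at 1 in ARRB2 and at 1 in ARRDC4, and was absent from the longest annotated 3′ UTRs of ARRDC1, ARRDC2, ARRDC3 and TXNIP.

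The sites are shown because TXNIP and ARRDC3 carry the same word and moved in opposite directions with siGGCAGU, and because ARRB1 has the most copies of GCCCCC in the family. The word is in capitals within 30 bases of the 3′ UTR, read 5′ to 3′ on the strand of the gene, and the hg38 coordinates below are those of the word. The 2 TXNIP words lie at chr1:145993187-145993192 and chr1:145992785-145992790, the ARRDC3 word at chr5:91370581-91370586, the ARRB1 words shown at chr11:75265341-75265346 and chr11:75263261-75263266 (all on the minus strand), and the ARRB2 word at chr17:4721408-4721413 on the plus strand.
TXNIP, base 659 of the 3′ UTR: aaagcagtagtaACTGCCccaccaaaggtc
TXNIP, base 1061 of the 3′ UTR: gaacctccaaatACTGCCatgagaaactag
ARRDC3, base 814 of the 3′ UTR: attttgttactgACTGCCtaaaatcactta
ARRB1, base 817 of the 3′ UTR: cagcaagcaccaGCCCCCagcagagtgagc
ARRB1, base 2897 of the 3′ UTR: caccacctcccaGCCCCCaaacatggccga
ARRB2, base 475 of the 3′ UTR: atcactctctctGCCCCCattccttcaaga
An A follows the word, opposite guide position 1, in the second TXNIP site shown, in both ARRB1 sites shown and in ARRB2, but not in ARRDC3 or in the other TXNIP site. Of the sites not shown, the ARRB1 word at base 3948 is followed by an A, and the GCCCCC word of ARRB1 at base 1725, its ACTGCC word and the ARRDC4 word are not. A match is a description of these letters. The shortest annotated 3′ UTRs of TXNIP, ARRB1 and ARRB2, of 12, 115 and 22 bases, held 0 copies of either word.

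Total counts were between 19781445 and 42428986 per library, and the small RNA genes RN7SL2 and SNORD3A took 19.83% to 31.96% of them. The spread between the 2 libraries of a group differed by group. Its chi-square per degree of freedom over genes was 2.18 in siNT1 and 3.17 in siGGGGGC at 24 h. At 48 h it was 27.07 in siNT1, 36.47 in siGGCAGU and 9.7 in siGGGGGC, on counts scaled by library total only. The fit shares a single estimate of spread per gene over all groups. The library siNT1 at 24 h replicate 1 stood apart: it had counts for 33365 genes, against 25238 to 28703 in the other 9, of which 3931 were counted in no other library. The values of the members and the counts of partner genes at 24 h are therefore also given without it. For siGGGGGC against siNT1 at 24 h the log2 differences without it were -0.021 for ARRDC3, -0.086 for ARRDC2, -0.06 for ARRB1 and 0.19 for ARRB2, none of which passed the test, and those of TXNIP and ARRDC1 stand beside their results. The keratins KRT7, KRT8 and KRT18 and the mesenchymal genes VIM, CDH2 and CD44 were expressed throughout, and so were the ovarian lineage genes PAX8 (84 to 1142 counts) and WT1 (31 to 191 counts), whereas the ovarian carcinoma marker MUC16 reached at most 26 counts and EPCAM at most 51. The leukocyte genes PTPRC, CD3E and CD68 had at most 6 counts in any library, and the endothelial genes PECAM1, VWF and CDH5 at most 28.

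Levels of different genes were compared as CPM (counts scaled to a library of 1000000 counts after correction for library composition) per kilobase of exon. In siNT1 at 48 h TXNIP led the family with a mean level of 16.1 CPM per kb, followed by ARRDC3 at 4.68, ARRDC1 at 1.97, ARRDC2 at 1.53, ARRB2 at 1.36 and ARRB1 at 0.373. The family was thus dominated by its alpha-arrestins, and per kb ARRB2 was the more abundant beta-arrestin in each of the 5 groups. With siGGCAGU at 48 h that order rests on the exon length used. There ARRB1 was at 3.76 CPM and ARRB2 at 2.96 CPM, while in the other groups ARRB2 was higher in CPM too. In siGGGGGC at 48 h the order was ARRDC3 at 57.8 CPM per kb, ARRDC2 at 2.96, ARRDC1 at 2.2, TXNIP at 1.32, ARRB2 at 0.984 and ARRB1 at 0.389.

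ARRDC4 (ENSG00000140450, hg38 chr15:97960703-97973833, plus strand), the paralogue of TXNIP that shares its response to glucose, had 0 counts in 9 libraries and 2 counts in siNT1 at 24 h replicate 1. A count of 0 allows up to 3 counts, which is 0.0661 to 0.167 CPM depending on the library, for counting error only. ARRDC4 was left out by the filter on low counts. The other 6 members were tested among 16905 genes, with between 46 counts in the lowest library (ARRB1) and 7310 in the highest (ARRDC3).

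**Figure D1:**
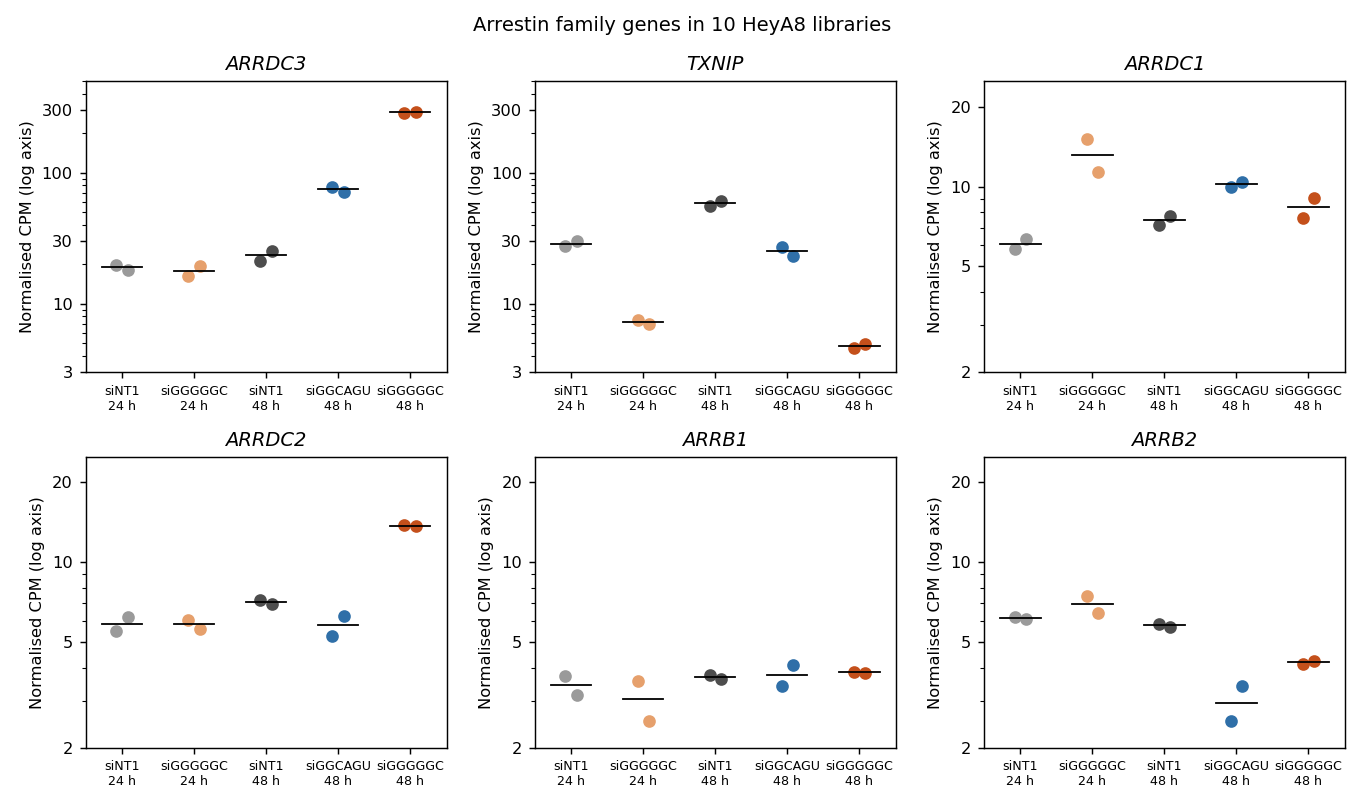
Normalised CPM on a log axis of the 6 arrestin family genes that were tested, in each of the 10 HeyA8 libraries (points, coloured by group) with the mean of each group (line, n = 2 libraries). ARRDC3 sits between 16.2 and 25.4 CPM in the 3 groups at the left and at 285 and 291 CPM with siGGGGGC at 48 h, while TXNIP is at its lowest, 4.56 and 4.94 CPM, in the same libraries.

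ARRDC3 (ENSG00000113369, hg38 chr5:91368631-91383317, minus strand) had 19.8 and 18 CPM in the siNT1 libraries at 24 h and 16.2 and 19.3 CPM in the siGGGGGC libraries at 24 h. At 48 h it had 21.3 and 25.4 CPM with siNT1, 77.5 and 71.6 CPM with siGGCAGU and 285 and 291 CPM with siGGGGGC. Both libraries of either siRNA at 48 h lay above both siNT1 libraries, and the 3 groups at 48 h did not overlap, whereas at 24 h siGGGGGC and siNT1 did.

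With siGGCAGU at 48 h ARRDC3 rose 3.19-fold, from 23.3 ± 2.89 (SD, n = 2) to 74.6 ± 4.18 CPM (SD, n = 2), a log2 difference of 1.67 ± 0.106 (standard error; adjusted p = 4.72e-09, quasi-likelihood test of edgeR). This comparison shares its siNT1 libraries with the one from which ARRDC3 was chosen. Rises were common there: 27.8% of all genes tested rose with siGGCAGU and 24.9% fell. ARRDC3 ranked 765 of 16905 by its log2 difference. The gene carries an ACTGCC word in its 3′ UTR, as printed above, and the part of that word was not tested.

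The siGGGGGC libraries at 48 h had 288 ± 4.39 CPM of ARRDC3 (SD, n = 2), 12.3-fold the level of siNT1 at 48 h and 3.87-fold that of siGGCAGU. The log2 difference from siNT1 was 3.62 (95% interval 3.39 to 3.86), which placed ARRDC3 86th from the top of 16905 genes. These values were taken to be those that led to its choice and are not tested here. In that comparison 27.8% of genes were called higher and 27.5% lower, which is stated for scale only.

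In the libraries at 24 h the log2 difference of ARRDC3 between siGGGGGC and siNT1 was -0.09, with a 95% interval of -0.35 to 0.16 (adjusted p = 0.644, edgeR). That interval does not reach the difference seen at 48 h. The siGGGGGC effect at 48 h exceeded that at 24 h by 3.72 on the log2 scale (95% interval 3.38 to 4.06), given as a description. Between the siNT1 groups ARRDC3 was at 18.9 ± 1.28 CPM at 24 h and 23.3 ± 2.89 CPM at 48 h (SD, n = 2), a log2 difference of 0.31 that did not pass the test (adjusted p = 0.0737, edgeR).

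The antisense gene ARRDC3-AS1 shares 145 exon bases with ARRDC3 on the other strand, and whether the counting used strand was not stated. It had 13 to 75 counts per library. In siGGGGGC at 48 h it had 40 and 34 counts beside 6628 and 7310 for ARRDC3. How many reads fell in the shared bases was not measured. ARRDC3-AS1 rose with siGGCAGU (log2 difference 1.21, standard error 0.244, adjusted p = 0.000635, edgeR), whereas with siGGGGGC at 48 h its log2 difference was 0.59 (adjusted p = 0.0688, edgeR).

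TXNIP (ENSG00000265972, hg38 chr1:145992435-145996579, minus strand) had 27.3 and 30.1 CPM with siNT1 at 24 h and 7.5 and 6.99 CPM with siGGGGGC at 24 h. At 48 h it had 55.8 and 60.6 CPM with siNT1, 26.9 and 23.1 CPM with siGGCAGU and 4.56 and 4.94 CPM with siGGGGGC. No group overlapped with its neighbour in the order of levels, and both siGGGGGC groups lay below the other 3. The groups of ARRB2 did not overlap with their neighbours either. The share of all genes with such separation was not counted, for TXNIP or for the other members.

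TXNIP fell 3.96-fold with siGGGGGC at 24 h, from 28.7 ± 2.02 to 7.24 ± 0.361 CPM (SD, n = 2), a log2 difference of -1.99 ± 0.121 (standard error; adjusted p = 6.88e-08, edgeR). It was the 142nd lowest of the 16905 log2 differences, in a comparison where 8.32% of genes fell and 10.6% rose. Without siNT1 at 24 h replicate 1 the log2 difference was -2.06 (adjusted p = 2.86e-06, edgeR). The ARRDC3 value in the same libraries was -0.09, within its error. TXNIP has no GCCCCC word in its annotated 3′ UTR.

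With siGGCAGU at 48 h TXNIP fell 2.34-fold, from 58.2 ± 3.37 to 25 ± 2.67 CPM (SD, n = 2; log2 difference -1.23, standard error 0.101, adjusted p = 7.26e-08, edgeR). That comparison, too, shares its siNT1 libraries with the one from which the genes were chosen. At 48 h the siGGGGGC libraries had 4.75 ± 0.27 CPM (SD, n = 2), 12.2-fold below siNT1 and 5.23-fold below siGGCAGU. The log2 difference from siNT1 was -3.61 (95% interval -3.87 to -3.36), the 43rd lowest of all genes tested, and is a description. The siGGGGGC effect on TXNIP at 48 h minus that at 24 h was -1.63 on the log2 scale (95% interval -2.0 to -1.26), also without a test.

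TXNIP also changed with time in the control. It rose 2.03-fold in siNT1 between 24 h and 48 h (log2 difference 1.02, standard error 0.101, adjusted p = 3.59e-05, edgeR), and was the sole member called between these groups, where 9.37% of genes rose and 7.2% fell. Without siNT1 at 24 h replicate 1 the log2 difference was 0.95 (adjusted p = 0.00404, edgeR). In the siGGGGGC libraries the mean level was 7.24 CPM at 24 h and 4.75 CPM at 48 h, so the rise seen in siNT1 was not seen there. The medium was changed at 24 h in the wells kept to 48 h, and the siNT1 libraries at 48 h also entered the comparison from which the genes were chosen.

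The ratio of ARRDC3 to TXNIP within a library does not depend on normalization between libraries. Per kilobase of exon it was 0.525 and 0.432 in siNT1 at 24 h and 0.276 and 0.303 in siNT1 at 48 h, so TXNIP was the more abundant transcript in all 4 control libraries. It was 1.56 and 1.99 with siGGGGGC at 24 h and 2.08 and 2.24 with siGGCAGU at 48 h. With siGGGGGC at 48 h it was 45.2 and 42.6. ARRDC3 made up 88.3% and 87.8% of the summed length-scaled counts of the 7 genes in those libraries, against 17.1% and 18.8% in siNT1 at 48 h. TXNIP went from 62.0% and 61.9% to 1.95% and 2.06%. Both genes were chosen from values of these libraries, so the ratios and shares at 48 h restate that choice. At 24 h ARRDC3 was at 17.7 CPM with siGGGGGC and 18.9 CPM with siNT1, and TXNIP at 7.24 and 28.7 CPM.

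**Figure D2:**
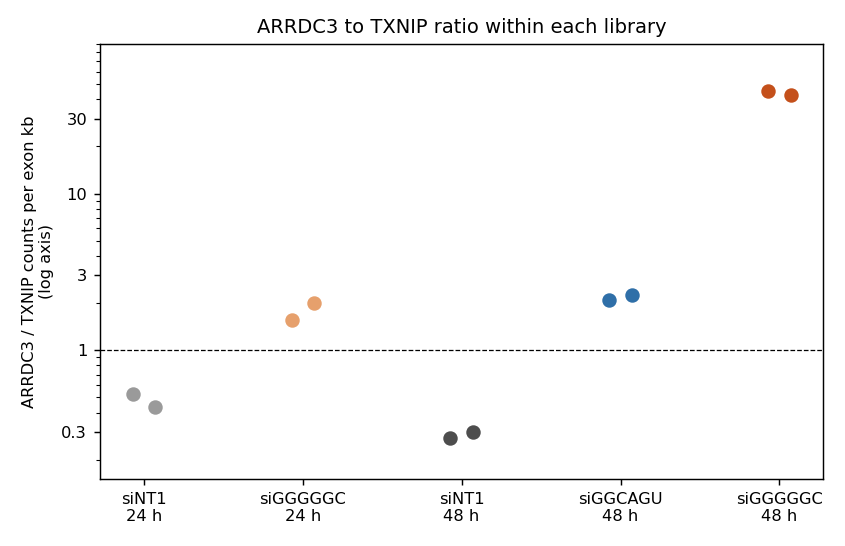
Ratio of ARRDC3 to TXNIP counts per exon kilobase within each library, on a log axis, for the 5 groups (2 points each). Both genes were chosen from values of these libraries, so the ratio is a description. The 4 siNT1 libraries lie below the dashed line of equal levels, between 0.276 and 0.525, and all 6 libraries of siGGGGGC and siGGCAGU lie above it, with siGGGGGC at 48 h at 42.6 and 45.2.

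ARRDC1 (ENSG00000197070, hg38 chr9:137605685-137615360, plus strand) recruits the ESCRT protein TSG101 to the plasma membrane, where it drives the budding of microvesicles. It had 5.83 and 6.35 CPM with siNT1 and 15.1 and 11.4 CPM with siGGGGGC at 24 h. At 48 h it had 7.18 and 7.74 CPM with siNT1, 9.97 and 10.4 CPM with siGGCAGU and 7.61 and 9.09 CPM with siGGGGGC. The groups did not overlap at 24 h, and at 48 h siGGGGGC overlapped with siNT1.

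ARRDC1 rose 2.17-fold with siGGGGGC at 24 h (log2 difference 1.12, standard error 0.154, adjusted p = 0.000139, edgeR). Without siNT1 at 24 h replicate 1 the value was 1.06 (adjusted p = 0.00532, edgeR). With siGGCAGU at 48 h it rose 1.36-fold (log2 difference 0.45, standard error 0.141, adjusted p = 0.0141, edgeR). That call was lost in 4 of 12 alternative settings: with no composition scaling (adjusted p = 0.18), with no filter on low counts (0.0527), without siNT1 at 48 h replicate 1 (0.0652) and without siGGCAGU at 48 h replicate 2 (0.0668). With siGGGGGC at 48 h the log2 difference was 0.16 (95% interval -0.15 to 0.47), and the effect at 48 h minus that at 24 h was -0.96 (95% interval -1.41 to -0.51), both as descriptions.

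The opposite-strand gene ARRDC1-AS1 shares 35 exon bases with ARRDC1 and had 80 to 342 counts per library. Its log2 difference with siGGGGGC at 24 h was -0.20 (adjusted p = 0.364, edgeR). It fell with siGGCAGU at 48 h (log2 difference -0.56, adjusted p = 0.00176, edgeR) and with siGGGGGC at 48 h (log2 difference -1.11, adjusted p = 5.67e-06, edgeR). Its levels did not rise where those of ARRDC1 rose.

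ARRDC2 (ENSG00000105643, hg38 chr19:18001132-18014102, plus strand) is an alpha-arrestin that carries cargo to NEDD4 family ligases. It was at 5.51 and 6.2 CPM in siNT1 and 6.06 and 5.61 CPM in siGGGGGC at 24 h. At 48 h it was at 7.18 and 6.97 CPM in siNT1, 5.28 and 6.3 CPM in siGGCAGU and 13.8 and 13.7 CPM in siGGGGGC. The last group stood above all others.

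No change of ARRDC2 was called in the comparisons that were tested. At 24 h the 95% interval of the log2 difference with siGGGGGC was -0.32 to 0.31 (adjusted p = 0.992, edgeR). With siGGCAGU at 48 h the log2 difference was -0.27 (95% interval -0.55 to 0.01, adjusted p = 0.0933, edgeR). In siGGGGGC at 48 h the mean was 13.7 ± 0.0984 CPM (SD, n = 2), 1.94-fold that of siNT1 and 2.35-fold that of siGGCAGU, with a log2 difference from siNT1 of 0.96 (95% interval 0.70 to 1.22), as a description.

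ARRB2 (ENSG00000141480, hg38 chr17:4710596-4721499, plus strand), beta-arrestin 2, had 6.2 and 6.1 CPM with siNT1 and 7.44 and 6.44 CPM with siGGGGGC at 24 h. At 48 h it had 5.87 and 5.69 CPM with siNT1, 2.52 and 3.41 CPM with siGGCAGU and 4.13 and 4.26 CPM with siGGGGGC. All 4 libraries of the siRNAs at 48 h lay below both siNT1 libraries. ARRB2 fell 1.9-fold with siGGCAGU (log2 difference -0.93, standard error 0.162, adjusted p = 0.000171, edgeR). Its longest annotated 3′ UTR holds no ACTGCC and 1 GCCCCC word, and the part of these words was not tested. With siGGGGGC the log2 difference of ARRB2 was 0.17 at 24 h (adjusted p = 0.504, edgeR) and -0.46 at 48 h (95% interval -0.79 to -0.13), the latter without a test.

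ARRB1 (ENSG00000137486, hg38 chr11:75260122-75351705, minus strand), beta-arrestin 1, was at 2.53 to 4.09 CPM in all 10 libraries. Its 2 values were 3.72 and 3.17 CPM in siNT1 and 3.56 and 2.53 CPM in siGGGGGC at 24 h, and 3.76 and 3.62, 3.42 and 4.09, and 3.87 and 3.83 CPM in siNT1, siGGCAGU and siGGGGGC at 48 h. Each group overlapped with its neighbour in the order of levels. The 95% intervals of the log2 difference were -0.63 to 0.26 with siGGGGGC at 24 h (adjusted p = 0.598, edgeR) and -0.33 to 0.42 with siGGCAGU (adjusted p = 0.846, edgeR). With siGGGGGC at 48 h the log2 difference was 0.06 (95% interval -0.32 to 0.44). ARRB1 holds 4 GCCCCC words in its longest annotated 3′ UTR and 0 in its shortest. Which 3′ UTR the cells used was not measured. An unnamed transcript on the same strand, ENSG00000279117, shares 2338 exon bases with ARRB1 and had 2 to 28 counts. How many reads fell in the shared bases was not measured, so the values of ARRB1 are uncertain by an unknown amount.

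**Figure D3:**
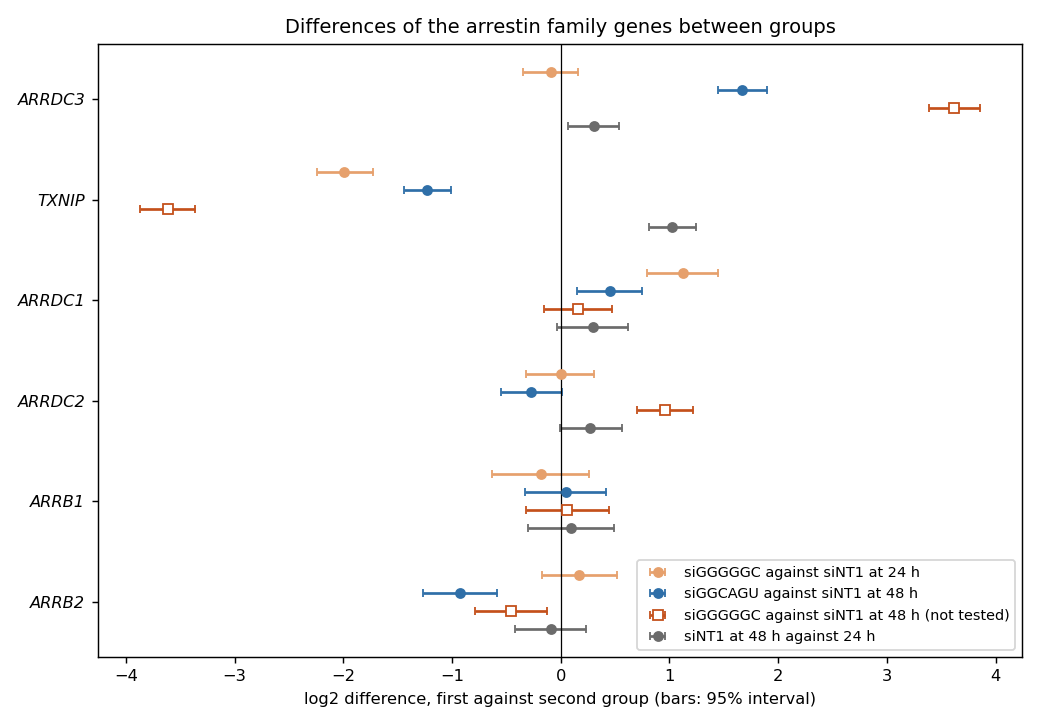
Log2 differences of the 6 arrestin family genes with 95% intervals from the edgeR fit, for 3 comparisons that were tested (filled circles) and for siGGGGGC against siNT1 at 48 h, which was not tested (open squares). The ARRDC3 value moves from -0.09 at 24 h to 3.62 at 48 h with siGGGGGC, TXNIP is at -1.99 and -3.61, and every ARRB1 interval spans 0.

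In all, 2 of the 6 members tested were called at 24 h with siGGGGGC (ARRDC1 higher, TXNIP lower) and 4 with siGGCAGU at 48 h (ARRDC1 and ARRDC3 higher, TXNIP and ARRB2 lower). Over all genes tested 10.6% were higher and 8.32% lower at 24 h, and 27.8% and 24.9% with siGGCAGU. The median log2 difference of the members was -0.05 and -0.11 in these comparisons, beside 0.003 and 0.024 over all genes tested. The members did not move as a block. Over the 10 libraries the Pearson correlation of log2 CPM was 0.81 between ARRDC2 and ARRDC3 and -0.53 between ARRDC3 and TXNIP, which is a description of libraries that share their groups. In RNA from a whole well, a higher level in every cell and a larger share of cells with that level cannot be told apart.

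The summed level of the 7 ovarian carcinoma markers, mainly keratins, was 256 to 269 CPM in siGGGGGC at 48 h, where ARRDC3 was highest, against 686 to 694 CPM in siNT1 and 767 to 913 CPM in siGGCAGU at 48 h. At 24 h it was 805 to 891 CPM with siGGGGGC and 721 to 735 CPM with siNT1. The summed level of the 3 mesenchymal genes at 48 h was 1870 to 1930 CPM in siNT1, 1340 to 1470 CPM in siGGCAGU and 1100 CPM in both siGGGGGC libraries, and at 24 h it was 1740 to 1750 CPM in siNT1 and 1450 to 1460 CPM in siGGGGGC. The part of these shifts in the values of the arrestin family was not tested.

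The genes whose log2 CPM over the 10 libraries was most like that of ARRDC3, among the 5650 genes whose mean count reached 500, were the antisense RNA ZFPM2-AS1 (Pearson r = 0.991), the ubiquitin hydrolase gene UCHL1 (r = 0.986) and the small GTPase gene RAB10 (r = 0.984). ZFPM2-AS1 averaged 37.0 CPM in siNT1, 52.1 CPM in siGGCAGU and 97.2 CPM in siGGGGGC at 48 h, a smaller range than that of ARRDC3. The genes most like TXNIP were CS, encoding citrate synthase (r = 0.995), the kinase gene SGK1 (r = 0.992) and EIF5A, a translation factor gene (r = 0.985). EIF5A averaged 341 CPM in siNT1, 188 CPM in siGGCAGU and 30.6 CPM in siGGGGGC at 48 h, and 210 and 49.5 CPM in siNT1 and siGGGGGC at 24 h. EIF5A is a gene that the study reported as a target of siGGGGGC, from qPCR, Western blot and a reporter with mutated GCCCCC words. These likenesses rest on the same 10 libraries, whose groups set most of the spread.

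Partners of the family were taken from 9 lists with 43 genes, of which 38 were tested. With siGGGGGC at 24 h 7 of the 38 rose and 2 fell, where 10.6% of all genes tested rose and 8.32% fell. Without siNT1 at 24 h replicate 1, 4 rose and 2 fell, and TXNRD2, VPS4B and AP2A2 were no longer called. With siGGCAGU at 48 h 20 rose and 9 fell, and with siGGGGGC at 48 h 17 rose and 9 fell. The comparisons at 48 h share their siNT1 libraries, and there 27.8% of all genes tested rose with either siRNA, 24.9% fell with siGGCAGU and 27.5% fell with siGGGGGC. ARRDC5, SAG, ARR3, MLXIPL and ITGB4 had at most 12 counts in any library and were not tested.

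**Figure D4:**
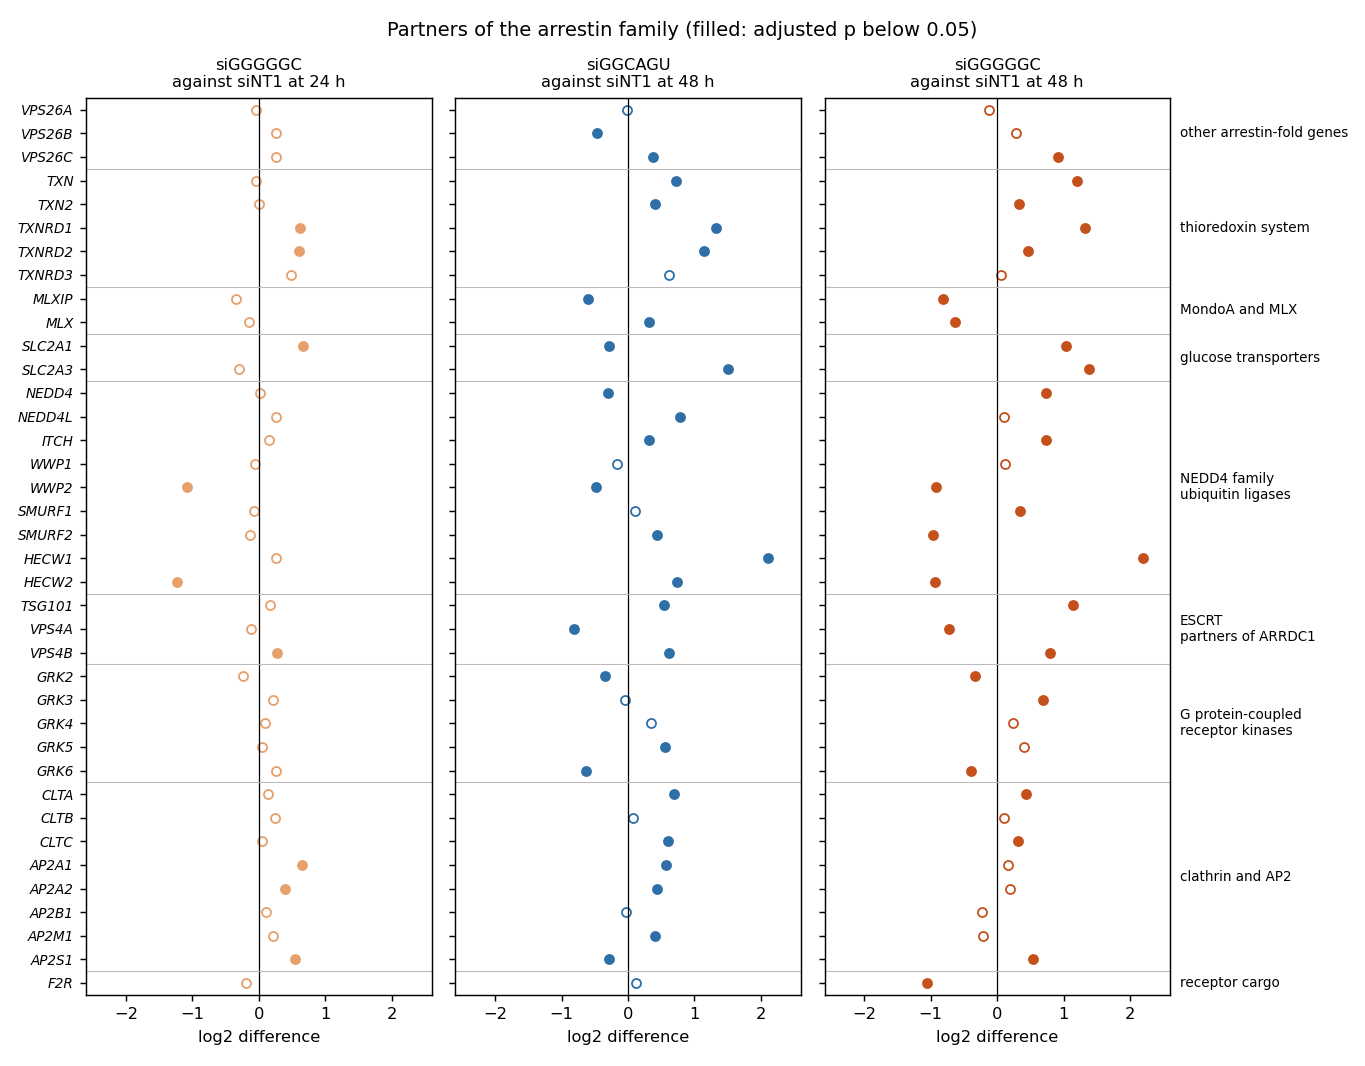
Log2 differences of 38 partner genes of the arrestin family against siNT1, for siGGGGGC at 24 h (left), siGGCAGU at 48 h (middle) and siGGGGGC at 48 h (right). Filled circles have an adjusted p below 0.05. TXNRD1 is to the right of 0 in each panel, at 0.62, 1.32 and 1.33, whereas HECW2 is at -1.23, 0.74 and -0.93.

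Of the thioredoxin system, whose thioredoxin TXNIP binds, 2 of 5 genes rose with siGGGGGC at 24 h and 4 of 5 rose with either siRNA at 48 h. Over all genes tested 10.6% rose at 24 h and 27.8% with either siRNA at 48 h. Of the 5 genes, 0 fell in any of these comparisons by edgeR, by its unadjusted p under 0.05 or by DESeq2. TXNRD1, encoding cytosolic thioredoxin reductase, was the largest of these changes each time. It went from 1650 ± 103 CPM in siNT1 to 4100 ± 447 CPM with siGGCAGU and 4150 ± 156 CPM with siGGGGGC at 48 h (SD, n = 2; log2 differences 1.32 and 1.33, adjusted p = 8.06e-08 and 8.56e-08, edgeR). At 24 h the log2 difference was 0.62 (adjusted p = 0.000906, edgeR). TXN, encoding thioredoxin itself, rose with siGGGGGC at 48 h by 1.20 on the log2 scale (adjusted p = 4.25e-07, edgeR) and was at -0.05 at 24 h (adjusted p = 0.814). The median of the list was 0.48, 0.73 and 0.47 in the 3 comparisons. At 24 h that median was the value of TXNRD3, at 0.637 against 0.461 CPM (adjusted p = 0.568, edgeR). A link of these values to TXNIP was not tested.

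Of the glucose transporters that TXNIP acts on, SLC2A1, encoding GLUT1, rose with siGGGGGC at 24 h (log2 difference 0.66, adjusted p = 0.000202, edgeR) and at 48 h (1.04, adjusted p = 2.36e-07), where it was at 134 ± 5.85 CPM against 65.4 ± 6.02 CPM in siNT1 (SD, n = 2). With siGGCAGU it fell, by 0.29 on the log2 scale (adjusted p = 0.0178, edgeR), and siGGGGGC exceeded siGGCAGU by 1.33 (standard error 0.0958, adjusted p = 1.66e-08, edgeR). SLC2A3, encoding GLUT3, rose with both siRNAs at 48 h, with log2 differences of 1.51 and 1.39 for siGGCAGU and siGGGGGC (adjusted p = 4.13e-08 and 1.18e-07, edgeR), and at 24 h its value was -0.30 (adjusted p = 0.122).

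MLXIP, which encodes MondoA, fell with siGGCAGU (log2 difference -0.61, adjusted p = 0.00195, edgeR) and with siGGGGGC at 48 h (-0.82, adjusted p = 0.000192). At 24 h the MLXIP value with siGGGGGC was -0.34 (standard error 0.151, adjusted p = 0.141, edgeR). Its partner MLX rose with siGGCAGU (0.32, adjusted p = 0.0278, edgeR) and fell with siGGGGGC at 48 h (-0.63, adjusted p = 0.000327). A link of the MLXIP and MLX values to those of TXNIP was not tested. MondoA with MLX binds E-boxes, the word CACGTG and its variant CACGAG. On both strands of the RefSeq promoter windows (GRCh38.p14, 250 bases before to 50 after a gene start), CACGTG was found in 7.26% and CACGAG in 6.78% of 35116 windows, the latter word having been chosen after the TXNIP sequence was seen. The windows of TXNIP and ARRDC4 are shown, with the words in capitals, because these were the members searched that held one, and windows of ARRDC1, ARRDC2, ARRDC3 and ARRB2 held none. ARRB1 was not searched. The TXNIP stretch lies at chr1:145996645-145996674 on the minus strand, 95 to 66 bases before a start, and that of ARRDC4 at chr15:97960481-97960510 on the plus strand, 222 to 193 bases before its start.
TXNIP: ggatgtgCACGAGggcagCACGAGcctccg
ARRDC4: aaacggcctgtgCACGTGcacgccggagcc
Whether a factor was bound there was not measured in these libraries. The words differed, with CACGAG at 2 places in TXNIP and CACGTG at 1 in ARRDC4. TXNIP was the leading member of the family in siNT1, and ARRDC4 had 0 counts in 9 libraries. The part of the words in these levels was not tested.

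NEDD4 family ligases, which alpha-arrestins recruit, moved in both directions. With siGGGGGC at 24 h 0 of 9 rose by edgeR (1 at an unadjusted p under 0.05, 0 by DESeq2) and 2 fell, namely HECW2 (log2 difference -1.23, adjusted p = 4.86e-05, edgeR) and WWP2 (-1.08, adjusted p = 0.000119). With siGGCAGU 5 rose and 2 fell, and with siGGGGGC at 48 h 4 rose and 3 fell. Over all genes tested 10.6% rose and 8.32% fell at 24 h, and 27.8% rose with either siRNA at 48 h. There 24.9% fell with siGGCAGU and 27.5% with siGGGGGC. HECW1 had the largest change at 48 h, from 1.71 ± 0.148 CPM in siNT1 to 7.37 ± 0.106 CPM with siGGCAGU and 7.76 ± 0.693 CPM with siGGGGGC (SD, n = 2; log2 differences 2.11 and 2.19, adjusted p = 3.79e-08 and 3.25e-08, edgeR). NEDD4, the ligase best known as a partner of ARRDC3, rose with siGGGGGC at 48 h (0.74, adjusted p = 8.72e-06, edgeR) and fell with siGGCAGU (-0.30, adjusted p = 0.014). Of the ESCRT partners of ARRDC1, TSG101 rose with siGGGGGC at 48 h (1.14, adjusted p = 7.31e-08, edgeR) and VPS4A fell (-0.72, adjusted p = 5.94e-05). With siGGCAGU VPS4A had the largest change of that list, a fall of 0.82 on the log2 scale (adjusted p = 1.75e-05, edgeR), and TSG101 and VPS4B rose. With siGGGGGC at 24 h VPS4B alone of these 3 genes was called, at 0.28 (adjusted p = 0.037, edgeR).

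Of the membrane cargo listed, F2R, the thrombin receptor PAR1, was the gene tested. It fell from 7.27 ± 0.0751 CPM in siNT1 to 3.48 ± 0.305 CPM with siGGGGGC at 48 h (SD, n = 2; log2 difference -1.06, adjusted p = 3.45e-05, edgeR). With siGGCAGU it was at 7.98 ± 0.96 CPM (SD, n = 2; log2 difference 0.12, adjusted p = 0.492, edgeR), and at 24 h the log2 difference with siGGGGGC was -0.19 (adjusted p = 0.506, edgeR).

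Of the receptor kinases that prepare receptors for beta-arrestins, at 24 h 0 of 5 passed with edgeR (1 at an unadjusted p under 0.05, 0 by DESeq2), and GRK6 had the largest value, 0.26 (adjusted p = 0.146, edgeR). With either siRNA at 48 h 1 of 5 rose and 2 fell, namely GRK2 and GRK6 in both comparisons, and the largest changes were the fall of GRK6 with siGGCAGU (-0.64, adjusted p = 0.000303, edgeR) and the rise of GRK3 with siGGGGGC (0.69, adjusted p = 0.000105). Over all genes tested 10.6% rose and 8.32% fell at 24 h, and 27.8% rose with either siRNA at 48 h. There 24.9% fell with siGGCAGU and 27.5% with siGGGGGC. Of the 8 clathrin and AP2 genes, 3 rose with siGGGGGC at 24 h, 5 rose and 1 fell with siGGCAGU, and 3 rose with siGGGGGC at 48 h. AP2A1 had the largest value at 24 h (0.65, adjusted p = 0.00171, edgeR), CLTA with siGGCAGU (0.69, adjusted p = 4.66e-06) and AP2S1 with siGGGGGC at 48 h (0.54, adjusted p = 3.79e-05). Of the other genes with an arrestin fold, the 3 tested were VPS26A and VPS26B, which encode retromer subunits, and the related VPS26C. VPS26C rose with siGGCAGU (0.38, adjusted p = 0.00176, edgeR) and with siGGGGGC at 48 h (0.91, adjusted p = 4.12e-07, edgeR), VPS26B fell with siGGCAGU (-0.47, adjusted p = 0.0068), and at 24 h 0 of the 3 passed (1 at an unadjusted p under 0.05, 0 by DESeq2), with VPS26B at 0.26 (adjusted p = 0.212).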

How the data were processed

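The authors isolated total RNA, depleted ribosomal RNA, sequenced paired-end TruSeq libraries on a HiSeq4000, and made raw counts per Ensembl gene (hg38). Per the labels the tools were TopHat, Bowtie2, HTSeq and DESeq2; the methods name TopHat or STAR for alignment, with versions not repeated here, and the strand setting was not given in the sources used here. The deposited counts are whole numbers without normalization. The 4 deposited tables of the authors' comparisons (log2 fold changes and p-values) were not used.

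Members and lists were chosen with earlier results of these data known. Genes were filtered with filterByExpr (16905 kept), scaled by TMM and tested in a single fit of the 10 libraries and 5 groups with the quasi-likelihood test of edgeR 4.0.16 (R 4.3.3; 5 residual degrees of freedom), with Benjamini-Hochberg adjustment over all genes and a threshold of 0.05. Intervals are 95% from that fit. With 2 libraries per group an exact permutation test cannot go below 0.333, so none was run. The test of siGGGGGC against siNT1 at 24 h was also run on counts simulated with the same spread in all groups. The tests that use libraries at 48 h were not checked that way. Named genes were the 7 members with values in every library, the largest change of each list, the 3 genes most correlated with ARRDC3 and with TXNIP (mean count of at least 500, prior count 2), and overlapping genes; other partner genes named were chosen after their values were seen. Annotation was GENCODE release 44, which held 98.9% of the identifiers. Total counts per library ranged from 19781445 to 42428986. Alternatives were RLE scaling, library size only, TMM without RN7SL2 and SNORD3A, other filters, DESeq2 1.42.0, a replicate block, fewer libraries and leaving each library out. Protein sequences were not analysed here, and 1 partner gene is not reported here.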

Additional observations from a re-analysis of the deposited data

Results flagged for a closer look

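ARRDC2 was flagged because its libraries lay on opposite sides of siNT1 with the siRNAs at 48 h. Both siGGGGGC libraries (13.8 and 13.7 CPM) lay above both siNT1 libraries (7.18 and 6.97 CPM), and both siGGCAGU libraries (5.28 and 6.3 CPM) lay below them. The log2 difference with siGGGGGC was 1.23 higher than that with siGGCAGU. The comparisons share their siNT1 libraries, the difference was not tested, and the log2 difference with siGGCAGU alone did not pass its own test (-0.27, adjusted p = 0.0933, edgeR). The siGGGGGC libraries at 48 h also entered the choice of the genes. The share of all genes with such an order of libraries was not counted.

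ARRB2 was flagged because its siGGGGGC libraries lay on opposite sides of siNT1 at the times sampled. At 24 h both siGGGGGC libraries (7.44 and 6.44 CPM) lay above both siNT1 libraries (6.2 and 6.1 CPM), and at 48 h both (4.13 and 4.26 CPM) lay below (5.87 and 5.69 CPM). The log2 difference at 24 h was 0.63 higher than that at 48 h. The difference between the times was not tested, and the log2 difference at 24 h alone did not pass its own test (adjusted p = 0.504, edgeR). Here, too, the share of all genes with such an order was not counted.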

How the results depend on the processing

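The calls of TXNIP and ARRDC1 with siGGGGGC at 24 h, of ARRDC3, TXNIP and ARRB2 with siGGCAGU and of TXNIP in siNT1 over time kept their direction and side of the threshold in each of 12 alternatives. With only the libraries compared, the adjusted p with siGGCAGU was 5.13e-06 for ARRDC3, 2.4e-05 for TXNIP and 0.00211 for ARRB2 (edgeR). Between the siNT1 times, 2 members were called in place of 1 with library size only, with no filter on low counts and without siNT1 at 48 h replicate 1, the added one being ARRDC3 (adjusted p = 0.00974, 0.0108 and 0.0499). ARRDC2 with siGGCAGU was called without siGGCAGU at 48 h replicate 2 (adjusted p = 0.0498, log2 difference -0.42; range of adjusted p 0.0498 to 0.385). Library size only gave 3.47 for ARRDC3 and -3.77 for TXNIP with siGGGGGC at 48 h, and no filter gave -3.74 for TXNIP. Leaving out a library gave 3.49 to 3.75 for ARRDC3. Library size only moved the median of all genes to -0.128 with siGGCAGU, 0.233 in siNT1 over time and -0.169 with siGGGGGC at 48 h. The share of calls that were higher went from 56.1% to 35.5% at 24 h, 52.8% to 40.6% with siGGCAGU, 56.6% to 93.8% in siNT1 over time (76.9% with no filter) and 50.3% to 37.7% with siGGGGGC at 48 h.

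Genes called at 24 h numbered 3203, 5105 with only the libraries compared, and 1471 to 1743 with a library left out. In siNT1 over time they numbered 2801, and 470 to 3528 with a library left out. Partner genes called at 24 h went from 9 to 6 without siNT1 at 24 h replicate 1, an alternative added after seeing the data.

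Signs turned for small values that passed no test. ARRDC2 at 24 h turned to 0.0093 with no filter and ranged from -0.086 to 0.096 with a library left out. With a library left out, ARRDC3 at 24 h ranged from -0.22 to 0.036 and ARRB1 from -0.44 to 0.05. ARRB1 with siGGCAGU went to -0.10 with library size only, -0.03 with no filter, -0.0049 with only the libraries compared and -0.11 with a library left out. With siGGGGGC at 48 h ARRB1 went to -0.095 with library size only and -0.058 with no filter. Between the siRNAs it went to -0.0011 without the small RNA genes, -0.028 with no filter and ranged from -0.092 to 0.16 with a library left out. In siNT1 over time ARRB2 went to 0.15 with library size only, and ARRB1 ranged from -0.0012 to 0.21 with a library left out. The causes were not tested.

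Replicate numbers did not pair the samples: the correlation of deviations between same-numbered libraries was -0.089 to 0.027 in 10 pairs of groups. A replicate block left 2, 4 and 1 members called and changed no member's call, with 2849, 8625 and 2308 genes called in place of 3203, 8906 and 2801. A mean count floor of 100 kept 2 of the 3 genes most like ARRDC3 and all 3 of those most like TXNIP. Members at a few CPM have wide intervals, as for ARRB1.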
